A study of Mus musculus with 6 samples.

Results

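The 10 genes described here are readouts of interleukin-1 (IL-1), interleukin-33 (IL-33), tumour necrosis factor (TNF) and NF-κB signalling. They were listed by name for their place in these pathways, with earlier results of these data known, and are 10 of the 42256 genes in the deposited table. All 10 passed the filter on low counts. RNA came from PDGFRa+ cells, a fibroblast-enriched fraction sorted from collagenase-digested scar of mouse hearts 7 days after injury. In 4 libraries, called Htr2b_cKO, the mice were Htr2bfl/flPostnMCM/+: both copies of Htr2b, the gene of the serotonin receptor 5-HT2B, were flanked by loxP sites, and a tamoxifen-inducible Cre was carried at 1 allele of Postn. In the 2 control libraries the mice were Htr2bfl/fl and carried no Cre. All mice in both groups were on a mixed 129S2/C57Bl6 background and were fed tamoxifen from 1 week before the injury until harvest; their age is not given in the sources used here. The Cre is driven from the periostin gene Postn, a marker of activated fibroblasts, so cells of the sorted fraction that never expressed Postn would keep Htr2b, and loss of Htr2b and effects of the Cre or of the modified Postn allele cannot be told apart. The comparison asks how loss of this receptor from activated fibroblasts alters the inflammatory transcripts of the scar.

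IL-1β and TNF are released mainly by leukocytes after heart injury, and IL-33 is a nuclear protein that stromal cells release when damaged. IL-1β acts through the receptor encoded by Il1r1, which the antagonist encoded by Il1rn blocks, and IL-33 acts through the receptor ST2, encoded by Il1rl1. All these signals converge on the kinase complex that releases NF-κB into the nucleus, where it switches on Nfkbia, which encodes its own inhibitor IκBα, the adhesion molecule genes Icam1 and Vcam1, and the acute-phase gene Saa3.

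To show the regulatory letters behind these readouts, RefSeq promoter windows (GRCm38.p6, the same assembly as mm10) were searched for a κB motif. The search covered both strands of the 250 bases before each start. The motif was GGGRNNYYCC (R is A or G, Y is C or T, N is any base), a degenerate 10-base form of the sequences bound by NF-κB. Looser forms and sites farther away were not searched, so a window without a match may still hold a site. Of the 10 genes, 9 had an entry, with 14 starts in all, and Vcam1 had none. The κB motif lay in 2 of the 14 windows, against 7.25% of the 32851 windows of all genes. One was the window of Nfkbia (chr12:55492648-55492897, minus strand), where the first base of the match lay 29 bases before the start. The other was the window before the second start of Il1r1 (chr1:40266336-40266585, plus strand), which lies within the annotated bounds of the gene. There the match began 232 bases before that start. Both are shown 5′ to 3′ on the strand of the gene, with the bases matched by the κB motif in capitals.
Nfkbia: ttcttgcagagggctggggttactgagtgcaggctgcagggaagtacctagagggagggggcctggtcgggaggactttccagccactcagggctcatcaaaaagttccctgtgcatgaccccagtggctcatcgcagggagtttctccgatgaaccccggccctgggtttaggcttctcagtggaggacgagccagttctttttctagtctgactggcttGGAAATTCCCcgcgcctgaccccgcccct
Il1r1 second start: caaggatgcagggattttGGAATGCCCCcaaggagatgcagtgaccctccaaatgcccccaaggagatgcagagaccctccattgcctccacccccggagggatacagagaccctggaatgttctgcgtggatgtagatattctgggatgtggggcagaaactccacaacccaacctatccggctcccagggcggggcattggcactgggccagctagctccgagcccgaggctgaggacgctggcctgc
Counts per gene do not show which start was used.

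Across the 6 libraries, totals ran from 28533427 to 37392496 estimated counts, so that a gene at 0 counts could still stand at up to 0.0781 to 0.108 CPM (3 counts, counting error only; CPM are counts scaled to the TMM-adjusted library total). All 8 fibroblast markers were detected, but so were markers of other cell types, so detection alone does not settle the cell type. The fibroblast sum ran from 77788 to 130341 CPM in Htr2b_cKO libraries and from 92332 to 116461 CPM in control libraries. The sum of 9 macrophage markers ran from 319.7 to 3985 CPM in Htr2b_cKO and from 726 to 2376 CPM in control libraries. Htr2b itself had 0, 3, 29 and 4 counts in Htr2b_cKO libraries and 13 and 7 counts in control libraries. The library labelled Htr2b_cKO 3 thus had more than either control library. Counts this low, in a fraction where some cells would keep Htr2b, do not settle its genotype, and the reason was not tested. The library labelled Htr2b_cKO 4 was the only one with Y-linked transcripts at more than trace level and almost no Xist. Values without these 2 libraries are given beside each member. The series design counts 4 and 2 animals, as many as there are libraries, but no label ties a library to an animal.

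For none of the 10 genes was a difference between the genotypes detected. The edgeR quasi-likelihood test called 0 of them at an adjusted p under 0.05, and it called 0.0189% of the 15840 genes tested. At an unadjusted p under 0.05 it picked 0 of the 10, against 9.59% of all genes tested. Without the library labelled Htr2b_cKO 3 it picked 2 (Il1rn and Il1rl1, against 12.6% of all genes), and with Htr2b_cKO 4 left out as well it picked 3 (Il1b, Il1rn and Il1rl1, against 9.69% of all genes); none of these passed at an adjusted p under 0.05. DESeq2, which called 0.647% of the genes it tested, and limma voom also called 0 of the 10, with 0 at an unadjusted p under 0.05 in either. For no member did the Htr2b_cKO libraries lie wholly above or below both control libraries, an arrangement seen in 19.6% of genes tested. Log2 fold changes (Htr2b_cKO minus control) were above 0 for 4 members (as for 50% of all genes tested) and below 0 for 6, with a median of -0.07, against a median of 0.00 for all genes tested. Exact two-sided permutation tests on the libraries gave p of 0.333 to 1 for single members, and the smallest p these group sizes allow is 0.0667.

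**Figure D1:**
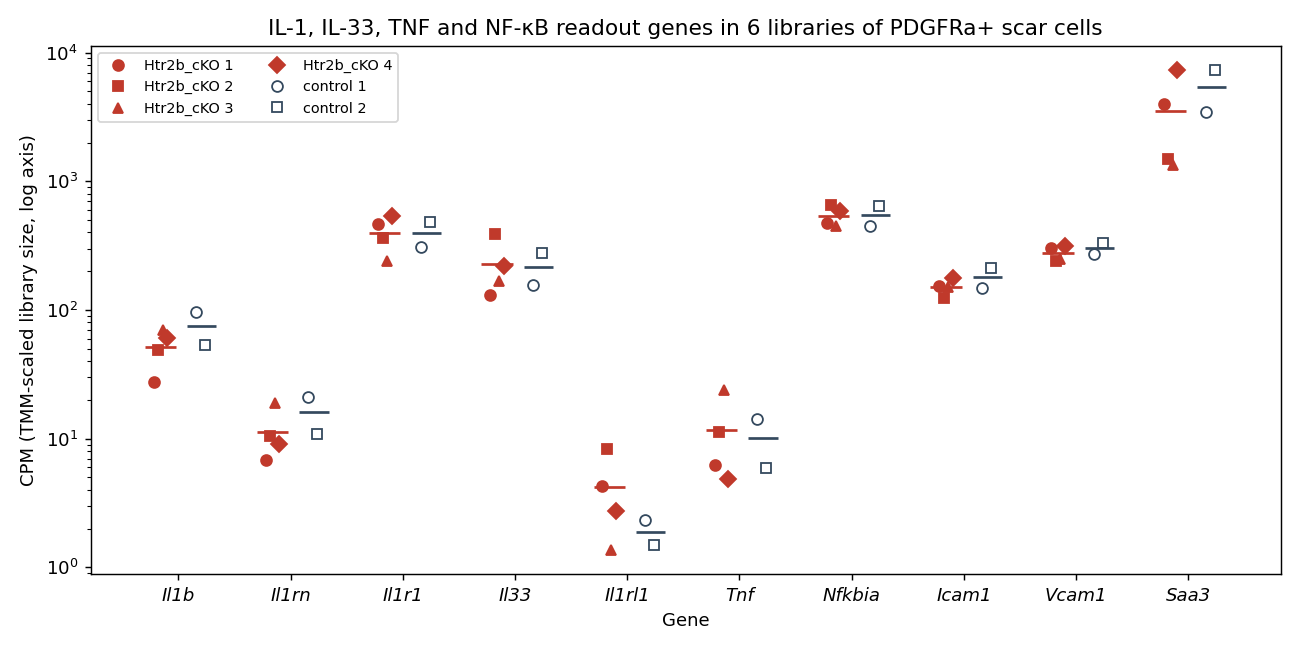
Level of each of the 10 genes in CPM on TMM-scaled library sizes (log axis), with 4 Htr2b_cKO libraries as filled red symbols, 2 control libraries as open symbols, and bars at the group means. The groups overlap for every gene, and Saa3 stands highest at 1332 to 7329 CPM in Htr2b_cKO libraries.

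Per kilobase of exon, the genes spanned more than 3 orders of magnitude, and their order was nearly the same in both groups. Exon length took in every annotated exon of a gene over all its transcripts. A gene whose transcript in use is shorter than that stands too low on this scale. Saa3 led, at 1357 ± 1078 CPM per kb in Htr2b_cKO (SD, n = 4) and 2065 ± 1044 CPM per kb in control libraries (SD, n = 2). Nfkbia followed, at 335 ± 59 CPM per kb in Htr2b_cKO and 339 ± 82 CPM per kb in control libraries. Il33 (78.9 ± 40.2 CPM per kb in Htr2b_cKO, 74.6 ± 29.3 in control) and Il1r1 (62.8 ± 20.1 in Htr2b_cKO, 62.2 ± 19.4 in control) were next and differed from each other by less than their spread. Icam1, Vcam1 and Il1b formed a group whose neighbours also did not differ beyond their spread, at 34.6, 31.1 and 27.1 CPM per kb in Htr2b_cKO and 41.4, 33.9 and 39.5 CPM per kb in control libraries. Tnf (7.07 ± 5.31 CPM per kb in Htr2b_cKO, 6.13 ± 3.56 in control), Il1rn (2.04 ± 0.94 in Htr2b_cKO, 2.91 ± 1.31 in control) and Il1rl1 (0.607 ± 0.440 in Htr2b_cKO, 0.275 ± 0.085 in control) were the lowest. Per kilobase, Tnf was below Il1r1, and the receptor transcript Il1rl1 was below its ligand transcript Il33, in each of the 6 libraries.

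Il1b (ENSMUSG00000027398, chromosome 2 from 129364570 to 129371139 in mm10) encodes the ligand IL-1β. It had 27.5, 49.0, 69.3 and 60.9 CPM in Htr2b_cKO libraries, against 96.7 and 53.8 CPM in control libraries. Control 1 was the highest of the 6 libraries, and control 2 lay among the Htr2b_cKO libraries. The means were 51.7 ± 18.2 CPM in Htr2b_cKO (SD, n = 4) and 75.2 ± 30.3 CPM in control libraries (SD, n = 2). By edgeR this was a log2 fold change of -0.54 (SE 0.39, interval of 2 SEs -1.31 to 0.23, adjusted p = 0.689). It was -0.06 without control 1 and -0.98 with Htr2b_cKO 3 and Htr2b_cKO 4 both left out (unadjusted p = 0.0479, adjusted p = 0.512). Il1rn (ENSMUSG00000026981, chromosome 2 from 24336853 to 24351494), the gene of the receptor antagonist, had 6.88, 10.4, 18.8 and 9.09 CPM in Htr2b_cKO libraries, against 21.2 and 10.96 CPM in control libraries. Control 1 was again the highest and Htr2b_cKO 1 the lowest. A log2 fold change of -0.52 (SE 0.42, adjusted p = 0.724 by edgeR) turned to 0.05 without control 1, and was -0.87 without the library labelled Htr2b_cKO 3 (unadjusted p = 0.0256, adjusted p = 0.348) and -0.90 when Htr2b_cKO 4 was left out as well (unadjusted p = 0.0492, adjusted p = 0.513). The GC and length correction gave -0.84 for Il1rn. The antagonist transcript stood below the ligand transcript in every library, in CPM as well as per kilobase. Per kilobase, Il1rn was 8.62%, 7.32%, 9.33% and 5.14% of Il1b in Htr2b_cKO libraries, and 7.56% and 7.02% of Il1b in control libraries. These shares rest on exon lengths over all annotated transcripts, 5535 bases for Il1rn and 1907 for Il1b. They would be higher for a shorter Il1rn transcript.

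Il1r1 (ENSMUSG00000026072, chromosome 1 from 40225080 to 40317257), the signalling receptor for IL-1, had 464, 361, 240.2 and 534 CPM in Htr2b_cKO libraries, against 308 and 483 CPM in control libraries. The highest and the lowest library were both Htr2b_cKO. Between genotypes the log2 fold change was 0.02 (SE 0.33, interval of 2 SEs -0.64 to 0.67, adjusted p = 0.99 by edgeR), and its sign turned with several settings. It was 0.06 with Htr2b_cKO 3 and Htr2b_cKO 4 both left out. Il1rap, the gene of the accessory chain that Il1r1 needs to signal, had 39.3 ± 9.7 CPM in Htr2b_cKO (SD, n = 4) and 35.6 ± 12.1 CPM in control libraries (SD, n = 2), a log2 fold change of 0.15 (edgeR adjusted p = 0.895).

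Il33 (ENSMUSG00000024810, chromosome 19 from 29925114 to 29960718) had 129.7, 392.2, 168 and 221 CPM in Htr2b_cKO libraries, against 156 and 275 CPM in control libraries. Htr2b_cKO 2 stood above all others, Htr2b_cKO 1 was the lowest, and both control libraries lay between them. In the edgeR test Il33 had a log2 fold change of 0.08 (SE 0.47, interval of 2 SEs -0.87 to 1.03, adjusted p = 0.969), which was -0.31 without Htr2b_cKO 2 and 0.28 with Htr2b_cKO 3 and Htr2b_cKO 4 both left out. The receptor gene Il1rl1 (ENSMUSG00000026069, chromosome 1 from 40429570 to 40465415) has a membrane-bound and a soluble product, which counts per gene do not separate. It had 4.28, 8.37, 1.36 and 2.73 CPM in Htr2b_cKO libraries, against 2.32 and 1.48 CPM in control libraries, which correspond to 120, 278, 45 and 92 counts in Htr2b_cKO and 89 and 41 counts in control. Htr2b_cKO 2 was the highest library for the receptor as it was for the ligand, and the library labelled Htr2b_cKO 3 was the lowest.

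Of the 10 members Il1rl1 had the log2 fold change farthest from 0, at 1.11 (SE 0.71, interval of 2 SEs -0.30 to 2.52, adjusted p = 0.651 by edgeR). It was 0.51 without Htr2b_cKO 2, 1.42 without the library labelled Htr2b_cKO 3 (unadjusted p = 0.0338, adjusted p = 0.365) and 1.72 when Htr2b_cKO 4 was left out as well (unadjusted p = 0.00825, adjusted p = 0.418). Mast cells and basophils also carry ST2. The sum of their 8 markers ran from 0.641 to 4.78 CPM in Htr2b_cKO and from 3.07 to 6.35 CPM in control libraries, with Mcpt8 at 0 in all 6 and Tpsb2, Cma1 and Fcer1a at 0 in Htr2b_cKO 1, 2 and 3. The libraries highest in Il1rl1, Htr2b_cKO 2 and Htr2b_cKO 1, had 0.994 and 0.641 CPM of that sum, against 3.07 to 6.35 CPM in control libraries. The sum of 11 lymphocyte markers was 5.88, 7.83, 20.9 and 5.64 CPM in Htr2b_cKO and 25.8 and 9.40 CPM in control libraries. The part of mast cells, basophils, lymphocytes or other cells in the values of Il1rl1 was not tested.

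**Figure D2:**
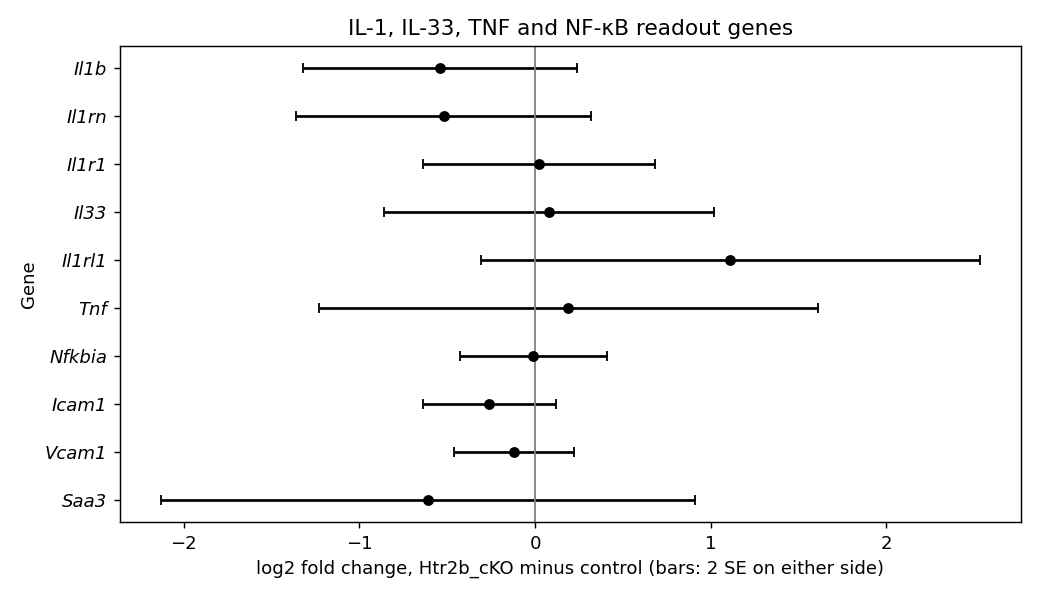
Log2 fold change of each of the 10 genes, Htr2b_cKO minus control, from the edgeR fit, with bars of 2 SEs on either side and a line at 0. Every bar crosses 0, and the widest bars belong to Saa3, Tnf and Il1rl1.

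Tnf (ENSMUSG00000024401, chromosome 17 from 35199381 to 35202007) had 6.24, 11.3, 24.0 and 4.84 CPM in Htr2b_cKO libraries, against 14.2 and 5.93 CPM in control libraries. The library labelled Htr2b_cKO 3 was the highest, Htr2b_cKO 4 the lowest, and the control libraries lay between them. Its log2 fold change of 0.19 (SE 0.71, adjusted p = 0.954 by edgeR) became -0.44 without the library labelled Htr2b_cKO 3, and -0.21 when Htr2b_cKO 4 was left out with it.

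For each of the 10 members, the CPM range within the Htr2b_cKO libraries was wider than the difference between the group means. The differences between libraries came in groups of genes. Macrophage markers varied over the same libraries: the 9 markers, all detected in every library, summed to 774, 2040, 3985 and 319.7 CPM in Htr2b_cKO libraries and to 2376 and 726 CPM in control libraries. Ordered from high to low, the libraries stood in the same order for Tnf as for the macrophage sum, at all 6 places. The order for Il1r1 was exactly the opposite. It was also the order of the fibroblast marker sum, except for an exchange of Htr2b_cKO 1 and control 2. How many of all tested genes share either order was not counted, so these matches are a description only. Of the most abundant macrophage markers, the complement gene C1qb had 103, 251, 455 and 32.3 CPM in Htr2b_cKO and 330.1 and 106 CPM in control libraries. The lysozyme gene Lyz2 had 350.1, 1166, 2517 and 163 CPM in Htr2b_cKO and 1328 and 370.1 CPM in control libraries. Il1rn stood in another order than the macrophage sum. For Il1rn, control 1 was above the library labelled Htr2b_cKO 3, control 2 was above Htr2b_cKO 2, and Htr2b_cKO 1 was the lowest. Il1b also departed from the sum, with Htr2b_cKO 4 at 60.9 CPM of Il1b and the lowest macrophage sum of all. Neutrophil markers, whose cells are another source of IL-1β, summed to 31.0, 31.6, 38.6 and 90.5 CPM in Htr2b_cKO libraries and to 108 and 38.3 CPM in control libraries, with Ly6g at 0 in Htr2b_cKO 4. The order of the libraries for Il1b differed from that for the neutrophil sum only by an exchange of Htr2b_cKO 3 and Htr2b_cKO 4. Of the 7 neutrophil markers 6 had a log2 fold change below 0, with a median of -0.67, where 50% of all tested genes were above 0. This was not particular to neutrophils: 6 of 7 endothelial markers (median -1.11) and all 5 tested mast cell and basophil markers (-1.75) were also below 0. All 6 epicardial and mesothelial, all 6 cardiomyocyte and all 5 erythroid markers were below 0. So were 7 of 9 tested lymphocyte markers and 4 of 6 mural markers. Above 0 were 5 of 9 macrophage markers and 6 of 8 fibroblast markers, each list with a median of 0.09, and 2 of 3 tested Schwann markers. Control 1 had the highest sum of the 6 libraries for neutrophil, mast cell and basophil, lymphocyte, endothelial, mural, cardiomyocyte and erythroid markers. It did not for macrophage, fibroblast, Schwann or epicardial and mesothelial markers. The part of any of these cell types in the values of Tnf, Il1b, Il1rn or Il1r1 was not tested. In sorted bulk RNA, fewer cells of a type and less RNA per cell cannot be told apart.

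**Figure D3:**
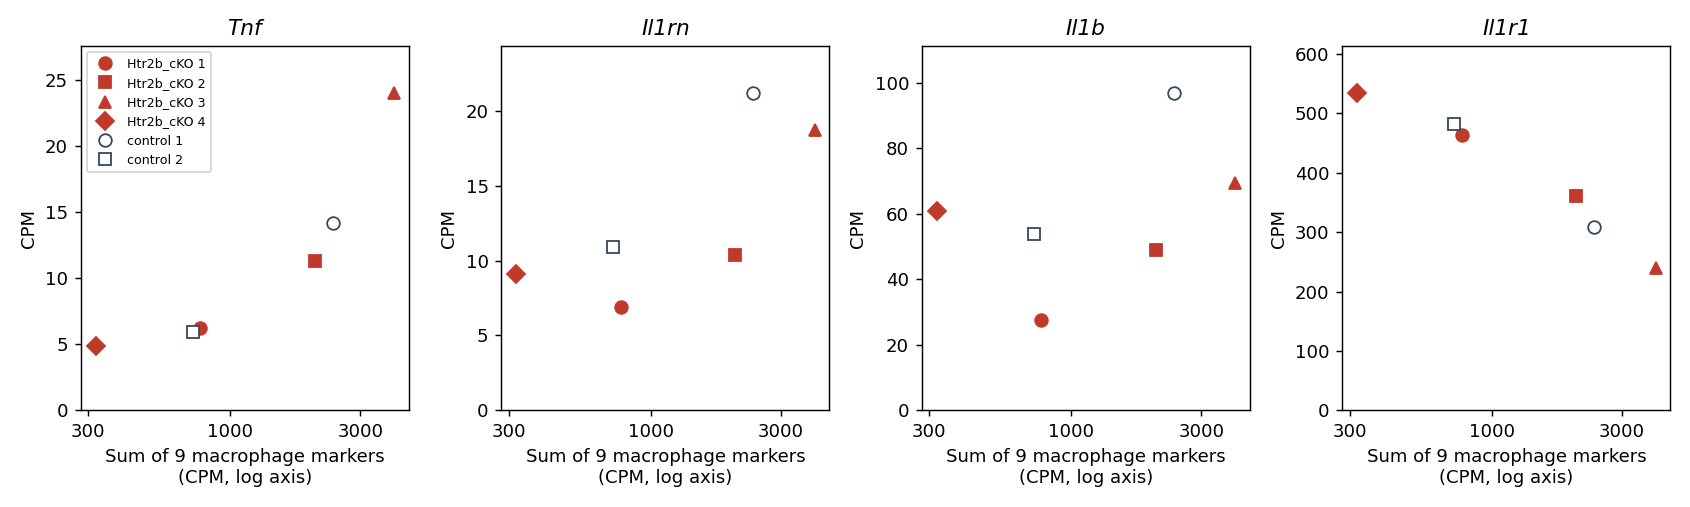
Level of Tnf, Il1rn, Il1b and Il1r1 in CPM against the sum of 9 macrophage markers in CPM (log axis), 1 symbol per library, Htr2b_cKO filled and control open. Tnf is highest and Il1r1 lowest in the library labelled Htr2b_cKO 3, where the macrophage sum is 3985 CPM.

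The first of the response genes is Nfkbia (ENSMUSG00000021025, chromosome 12 from 55489410 to 55492647), whose promoter held the κB match shown above. Its highest Htr2b_cKO library was 1.44-fold above its lowest, as for Icam1, against 1.3-fold for Vcam1 and 5.5-fold for Saa3. Nfkbia had 471, 651, 451 and 586 CPM in Htr2b_cKO libraries, against 452 and 638 CPM in control libraries. The means were 540 ± 95 CPM in Htr2b_cKO (SD, n = 4) and 545 ± 132 CPM in control libraries (SD, n = 2), a log2 fold change of -0.01 (SE 0.21, edgeR adjusted p = 0.986) with 2 SEs reaching from -0.44 to 0.41, and 0.04 with Htr2b_cKO 3 and Htr2b_cKO 4 both left out. Htr2b_cKO 2, control 2 and Htr2b_cKO 4 were the 3 highest libraries, in this order, for both Nfkbia and Il33. Nfkbia also responds to tissue dissociation. The immediate early and dissociation genes, 12 of 12 tested, included 0 called in either direction, against 0.0189% of all tested genes, and their sum ran from 13179 to 17090 CPM in Htr2b_cKO and from 11732 to 14586 CPM in control libraries. Of them 11 had a log2 fold change above 0, against 50% of all tested genes, with a median of 0.09, and Fosb had the smallest p, at 1821 ± 454 CPM in Htr2b_cKO (SD, n = 4) and 1263 ± 140 CPM in control libraries (SD, n = 2; log2 fold change 0.53, edgeR adjusted p = 0.548; 0.34 without Htr2b_cKO 4).

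Icam1 (ENSMUSG00000037405, chromosome 9 from 21015985 to 21028817), which encodes a ligand for leukocyte integrins, had 153, 123, 149.6 and 178 CPM in Htr2b_cKO libraries, against 148 and 213 CPM in control libraries. Control 2 was the highest library, and control 1 lay among the Htr2b_cKO libraries. By edgeR Icam1 had a log2 fold change of -0.26 (SE 0.19, adjusted p = 0.699), which was 0.04 without control 2 and -0.38 with Htr2b_cKO 3 and Htr2b_cKO 4 both left out. Vcam1 (ENSMUSG00000027962, chromosome 3 from 116109949 to 116129688), a second adhesion molecule for leukocytes, had 302, 240.5, 248 and 313 CPM in Htr2b_cKO libraries, against 270.1 and 331 CPM in control libraries. Vcam1 had the smallest SE of the 10 genes, 0.17, around a log2 fold change of -0.12 (interval of 2 SEs -0.47 to 0.22, adjusted p = 0.845 by edgeR). When GC content and exon length were corrected for, it was -0.53 (unadjusted p = 0.00419, adjusted p = 0.83). It was 0.04 without control 2 and -0.15 with Htr2b_cKO 3 and Htr2b_cKO 4 both left out. Endothelial cells express both adhesion genes. The sum of 7 endothelial markers ran from 63.1 to 99.1 CPM in Htr2b_cKO and was 257 and 62.6 CPM in control libraries, and control 1, the library with the highest sum, had 148 CPM of Icam1 and 270.1 CPM of Vcam1. The part of endothelial cells in these values was not tested.

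Saa3 (ENSMUSG00000040026, chromosome 7 from 46711998 to 46715700), which encodes an acute-phase serum amyloid A protein, ranked 12 among the 15840 tested genes by mean CPM. It had 4000.2, 1479, 1332 and 7329 CPM in Htr2b_cKO libraries, against 3457 and 7304 CPM in control libraries. Htr2b_cKO 4 and control 2 were nearly equal at the top, and Htr2b_cKO 2 and the library labelled Htr2b_cKO 3 were lowest. Within Htr2b_cKO the highest library was 5.5-fold above the lowest, and control 2 was 2.11-fold above control 1. For Saa3 the log2 fold change was -0.61 (SE 0.76, interval of 2 SEs -2.12 to 0.91, adjusted p = 0.833 by edgeR). It was 0.04 without control 2, -1.24 without Htr2b_cKO 4 and -0.97 without both Htr2b_cKO 3 and Htr2b_cKO 4. Control 2, Htr2b_cKO 4 and Htr2b_cKO 1 were the 3 highest libraries for Saa3, Vcam1, Icam1 and Il1r1 alike, though not in the same order for each, and they were the 3 lowest for the macrophage sum and for Tnf.

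**Figure D4:**
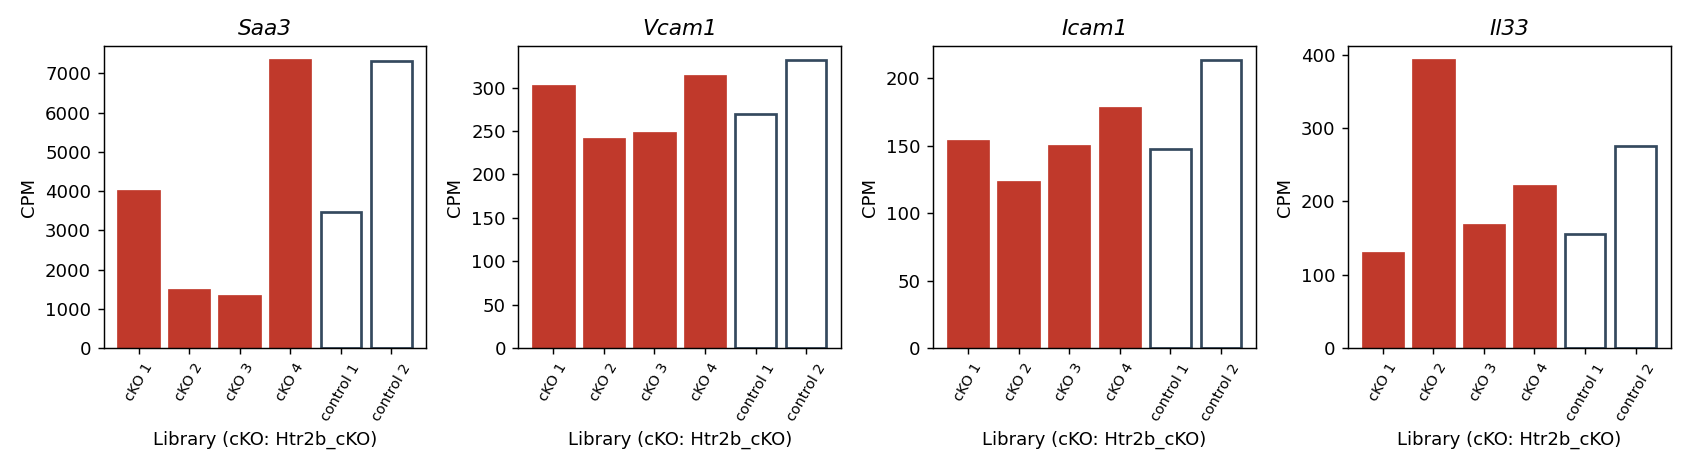
Level of Saa3, Vcam1, Icam1 and Il33 in CPM in each library, Htr2b_cKO as filled bars and control as open bars, from 0. Saa3 ranges from 1332 to 7329 CPM within Htr2b_cKO, while Vcam1 stays between 240.5 and 331 CPM over all 6 libraries.

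The genes whose log2 CPM followed Saa3, Il1b and Il33 most closely over the 6 libraries were taken from 9441 tested genes with a mean of at least 10 CPM, as a description. For Saa3 they were the neutrophil-attracting chemokine gene Cxcl5 (Pearson r = 0.996), Ficd (0.991) and Sik2 (0.99). Cxcl5 had 249.9, 134.6, 124.5 and 361.9 CPM in Htr2b_cKO libraries, against 220.1 and 401.4 CPM in control libraries. For Il1b they were the ribosomal protein gene Rps15a (r = 0.993), Gm10175 (0.993) and the complex I subunit gene Ndufa7 (0.992), and for Il33 they were Tcf19 (r = 0.971), Knop1 (0.962) and Cdc16 (0.96). With 6 libraries these were not the only genes at such values: of the 9441 genes, 84 had r above 0.95 with Il1b, 37 with Saa3 and 7 with Il33. All of them share the same libraries and depths.

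The rest of the pathway was read from 7 lists of 102 genes, of which 94 were tested. By edgeR 0 of the 94 were called. At an unadjusted p under 0.05, 3 were higher and 9 were lower in Htr2b_cKO, against 6.6% of all tested genes higher and 2.99% lower. For 3 genes all Htr2b_cKO libraries lay above both control libraries and for 13 below, against 10.6% and 8.98% of all tested genes. The median log2 fold change of the 94 was -0.07. Without control 2 the counts were 9 higher and 2 lower, where 7.43% of all tested genes were higher and 2.93% lower. Without control 1 they were 2 and 12, where 1.72% of all tested genes were higher and 1.53% lower. After the GC and length correction they were 2 and 4, where 2.67% of all tested genes were higher and 2.74% lower, and with Htr2b_cKO 3 and Htr2b_cKO 4 both left out they were 2 and 12, where 5.85% were higher and 3.84% lower.

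Of the 5 NF-κB subunit genes, Rel had the smallest p of all 94. It encodes c-Rel, the subunit best known from lymphoid and myeloid cells. It had 15.6, 19.0, 21.6 and 16.3 CPM in Htr2b_cKO libraries, against 9.73 and 9.65 CPM in control libraries, so every Htr2b_cKO library lay above both control libraries. The log2 fold change was 0.90 (SE 0.19, edgeR unadjusted p = 0.00139, adjusted p = 0.322). DESeq2 called it (adjusted p = 0.0409), and over the other alternatives its adjusted p ran up to 0.999. Leaving out the library labelled Htr2b_cKO 3 gave 0.82, leaving out Htr2b_cKO 4 as well gave 0.84, and the GC and length correction gave 0.61. Nfkb2, the precursor of p52, had 71.0 ± 4.8 CPM in Htr2b_cKO (SD, n = 4) and 92.6 ± 14.4 CPM in control libraries (SD, n = 2; log2 fold change -0.38, edgeR adjusted p = 0.456). Rela, the main activating subunit, had 76.7 ± 4.2 CPM in Htr2b_cKO and 92.9 ± 10.97 CPM in control libraries (log2 fold change -0.27, adjusted p = 0.56), and Nfkb1, the precursor of p50, had 103 ± 10 CPM in Htr2b_cKO and 111 ± 13 CPM in control libraries (log2 fold change -0.11, adjusted p = 0.832). Nfkb2 without control 2 was -0.21, Rela without it was -0.14, and after the GC and length correction Rela was -0.10 and Nfkb1 -0.38.

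Among 10 inhibitor and feedback genes, Bcl3, which encodes an IκB family protein that binds p50 and p52 in the nucleus, had the smallest p. It had 27.7, 19.1, 23.5 and 28.3 CPM in Htr2b_cKO libraries, against 40.1 and 46.2 CPM in control libraries, all below both control libraries. The log2 fold change was -0.81 (SE 0.18, edgeR unadjusted p = 0.00186, adjusted p = 0.322), -0.77 without the library labelled Htr2b_cKO 3 and -0.61 when GC content and length were corrected for. Its adjusted p was 0.0624 with DESeq2. Nfkbie, the gene of IκBε, had 22.8 ± 5.9 CPM in Htr2b_cKO (SD, n = 4) and 34.5 ± 10.2 CPM in control libraries (SD, n = 2), and Tnip1, whose product binds the deubiquitinase A20, had 70.8 ± 14.5 CPM in Htr2b_cKO and 100.4 ± 38.3 CPM in control libraries (edgeR adjusted p of 0.514 and 0.573). Without control 2 their log2 fold changes were -0.25 for Nfkbie and -0.05 for Tnip1, against -0.59 and -0.50 with it. Tnfaip3, the gene of A20 itself, had 440, 630, 251 and 605 CPM in Htr2b_cKO libraries, against 273 and 495 CPM in control libraries (log2 fold change 0.33, edgeR adjusted p = 0.833).

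Of 14 tested TNF superfamily ligand and receptor genes, 11 had a log2 fold change below 0, with a median of -0.26, where 50% of all tested genes were above 0. For 4 of them all Htr2b_cKO libraries lay below both control libraries, against 8.98% of all tested genes. The TNF receptor gene Tnfrsf1b had 99.3, 104, 117 and 102 CPM in Htr2b_cKO libraries, against 139 and 133 CPM in control libraries (log2 fold change -0.37, SE 0.13, edgeR unadjusted p = 0.0194, adjusted p = 0.427). Tnfrsf1a, the gene of the other TNF receptor, had 228, 253, 206 and 242 CPM in Htr2b_cKO libraries, against 269 and 295 CPM in control libraries (log2 fold change -0.28, edgeR adjusted p = 0.583). The lymphotoxin β receptor gene Ltbr had 72.2 ± 3.6 CPM in Htr2b_cKO (SD, n = 4) and 85.5 ± 3.5 CPM in control libraries (SD, n = 2; edgeR adjusted p = 0.571). None of these passed the test, and correcting for GC content and length brought them to -0.24 for Tnfrsf1b, -0.09 for Tnfrsf1a and -0.04 for Ltbr (-0.25 before it).

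Among 18 adaptor and kinase genes upstream of NF-κB, 7 were above 0 and 11 below, with 0 called. Chuk, the gene of the kinase IKKα, had 22.9, 25.6, 27.5 and 24.9 CPM in Htr2b_cKO libraries, against 15.4 and 20.2 CPM in control libraries (log2 fold change 0.51, edgeR unadjusted p = 0.0157, adjusted p = 0.423). Tab3, which links upstream signals to the kinase TAK1, had 10.01 ± 2.28 CPM in Htr2b_cKO (SD, n = 4) and 6.23 ± 1.26 CPM in control libraries (SD, n = 2; edgeR adjusted p = 0.474). Myd88, the adaptor shared by IL-1, IL-33 and toll-like receptors, had 82.9, 82.8, 83.7 and 84.3 CPM in Htr2b_cKO libraries, against 100.5 and 103 CPM in control libraries (log2 fold change -0.29, SE 0.11, edgeR unadjusted p = 0.034, adjusted p = 0.478). Its Htr2b_cKO libraries differed by less than 2 CPM, and all lay below both control libraries. The GC and length correction brought Chuk to 0.22, Tab3 to 0.38 and Myd88 to -0.11 (unadjusted p = 0.386 for Myd88), and Chuk was 0.32 without control 1.

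For the other IL-1 family genes, 10 of 14 were tested and 0 had an unadjusted p under 0.05. Il18bp, the gene of a secreted trap for IL-18, had 9.39 ± 2.15 CPM in Htr2b_cKO (SD, n = 4) and 12.8 ± 0.5 CPM in control libraries (SD, n = 2), Il36g had 1.65 ± 0.76 CPM in Htr2b_cKO and 2.90 ± 1.09 CPM in control libraries, and the decoy receptor gene Il1r2 had 4.76 ± 2.74 CPM in Htr2b_cKO and 7.41 ± 1.37 CPM in control libraries (edgeR adjusted p of 0.591, 0.604 and 0.687). Their log2 fold changes of -0.45, -0.83 and -0.65 became -0.76, -1.35 and -0.90 with Htr2b_cKO 3 and Htr2b_cKO 4 both left out, and Il36g was -0.36 without control 1. Il36b and Il1f10 were at 0 counts in all 6 libraries. Of 8 tested inflammasome and processing genes, Gsdmd, whose product forms the pore through which IL-1β leaves the cell, had 49.3 ± 3.4 CPM in Htr2b_cKO (SD, n = 4) and 63.8 ± 4.3 CPM in control libraries (SD, n = 2; log2 fold change -0.37, edgeR adjusted p = 0.427). Correcting for GC content and length brought Gsdmd to -0.18. The adaptor gene Pycard and the caspase gene Casp4 had 17.5 and 28.3 CPM on average in Htr2b_cKO, and 21.0 and 24.7 CPM in control libraries (edgeR adjusted p of 0.667 and 0.735).

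The 29 tested genes of a wider NF-κB response divided into 15 above and 14 below 0, with a median of 0.08. The 3 with the smallest p were all lower in Htr2b_cKO without passing the test. The gelatinase gene Mmp9 had 20.1, 19.9, 30.9 and 24.7 CPM in Htr2b_cKO libraries, against 53.2 and 29.4 CPM in control libraries (log2 fold change -0.79, edgeR adjusted p = 0.427), and it was -0.30 without control 1. The interferon-inducible chemokine gene Cxcl10 had 55.8 ± 1.3 CPM in Htr2b_cKO (SD, n = 4) and 71.1 ± 12.8 CPM in control libraries (SD, n = 2; adjusted p = 0.478 by edgeR). Sod2, a mitochondrial superoxide dismutase gene, had 133 ± 25 CPM in Htr2b_cKO (SD, n = 4) and 197 ± 61 CPM in control libraries (SD, n = 2; adjusted p = 0.485 by edgeR). Without control 2 the log2 fold change of Cxcl10 was -0.15 and that of Sod2 -0.20, against -0.35 and -0.56 with it, and the GC and length correction brought Sod2 to -0.89.

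**Figure D5:**
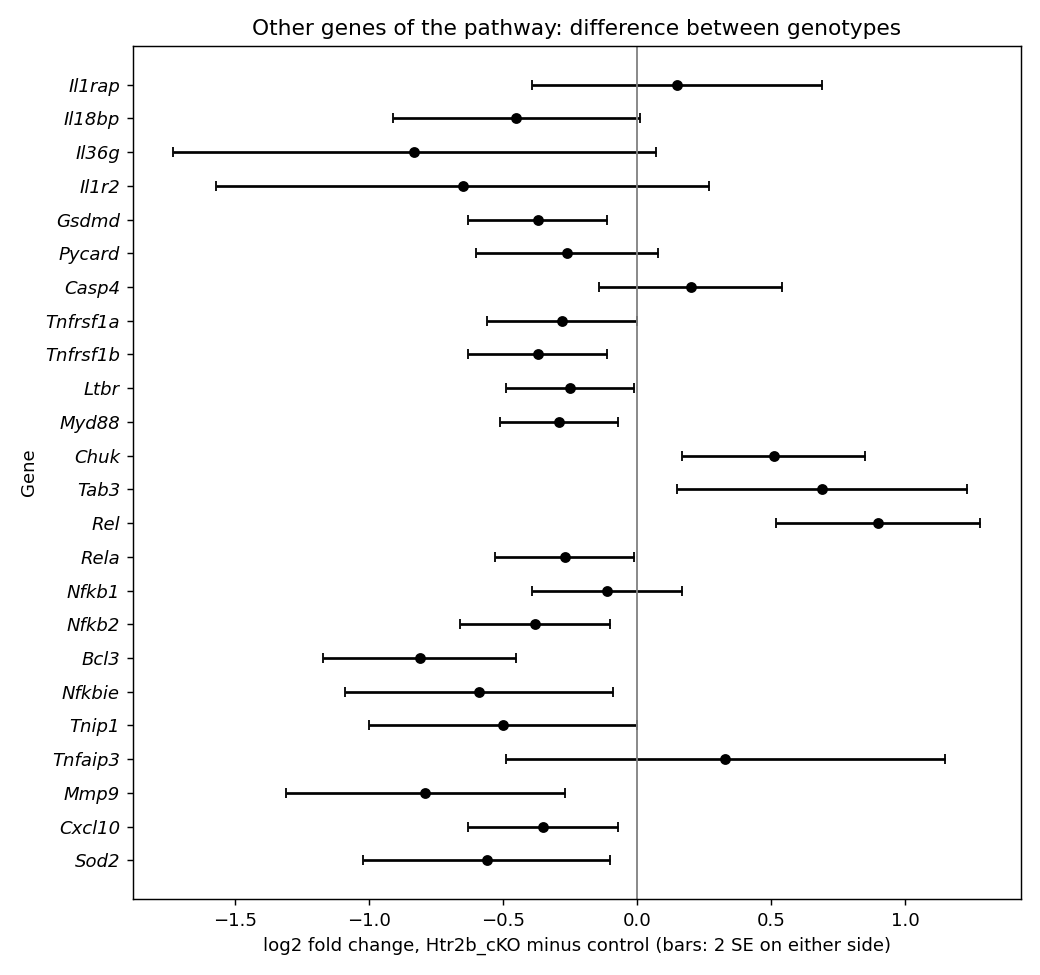
Log2 fold change of 24 other genes of the pathway, Htr2b_cKO minus control, from the edgeR fit, with bars of 2 SEs on either side and a line at 0. Rel lies farthest to the right at 0.90, and Il36g and Bcl3 farthest to the left at -0.83 and -0.81; the edgeR test called none of them.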

How the data were processed

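Estimated counts per Ensembl gene, deposited by the authors as whole numbers that are not normalized, entered every fit unchanged. A normalized signal with gene-specific factors, also deposited, served as 1 alternative. The submitters' processing notes name DRAGEN, DESeq2 and mm10, with no roles; how strand was counted is not given in the sources used here. Symbols, coordinates and exon lengths came from GENCODE M21 (mm10), which matched all 42256 identifiers.

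Genes were filtered with filterByExpr and tested, two-sided, with edgeR 4.0.16 (R 4.3.3; TMM, robust quasi-likelihood F test, genotype as the only term), leaving 15840; calls needed a Benjamini-Hochberg adjusted p under 0.05. Each SE was derived from the log2 fold change and its F statistic. The test was run on simulated data with set, large changes in well-counted genes, and its power for smaller differences was not assessed. Alternatives used DESeq2 1.42.0, limma 3.58.1, other scalings and filters, a GC and length correction, and left-out libraries. The members and lists were chosen with earlier results of these data known. Named were all members, up to 3 genes of smallest p per pathway list, direct partners of members, the 2 most abundant genes of the macrophage list, and the genes most like Il1b, Il33 and Saa3.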

Additional observations from a re-analysis of the deposited data

Results flagged for a closer look

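Of 36 genes checked for a library far from the others of the Htr2b_cKO group, 3 stood out, and chance gives about 1 in 20. Tnip1 was at 92.5 CPM in Htr2b_cKO 1, against 63.3 to 63.8 CPM in the other Htr2b_cKO libraries. Tab3 was at 13.4 CPM in Htr2b_cKO 1, against 8.48 to 9.12 CPM in the others. Htr2b was at 0.876 CPM in the library labelled Htr2b_cKO 3, against 0 to 0.119 CPM in the others. None of the 10 members was among them.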

How the results depend on the processing

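No member was called under any of the 17 alternatives, and the smallest adjusted p of a member was 0.348 (Il1rn without the library labelled Htr2b_cKO 3). The number of all genes called, 3 in the main test, was 105 with DESeq2, 5 with no filter on low counts, 5 without both Htr2b_cKO 3 and Htr2b_cKO 4, and 1 to 8 when 1 library was left out: 1 without control 1, 6 without control 2 and 8 without Htr2b_cKO 4. The sign of Il1b and Il1rl1 held under all 17 alternatives, and that of the other 8 members turned under at least 1; the cause was not tested. With upper quartile scaling Il1r1 turned to -0.01. With limma voom Il1r1 turned to -0.02, Il33 to -0.01 and Tnf to -0.01. After the GC and length correction Il1r1 turned to -0.18, Il33 to -0.10, Nfkbia to 0.15, Il1rap to -0.20 and Casp4 to -0.21. With Htr2b_cKO 3 and Htr2b_cKO 4 both left out, Tnf turned to -0.21 and Nfkbia to 0.04. Without Htr2b_cKO 1 the signs of Il1r1 and Nfkbia turned, without Htr2b_cKO 2 that of Il33, without the library labelled Htr2b_cKO 3 those of Tnf and Nfkbia, and without Htr2b_cKO 4 those of Il1r1 and Il1rap. Without control 1 the signs of Il1r1, Il1rn, Il33, Il1rap, Casp4 and Tnfaip3 turned, and without control 2 those of Tnf, Nfkbia, Icam1, Vcam1, Saa3 and Nfkb1. The older dispersion estimate of edgeR, chosen after seeing the data, called 2 genes and no member. With control 1 or 2 left out the lone control is assumed to vary like the other group. Over libraries left out in turn, values ran from -0.27 to 0.38 for Il1r1, -0.90 to 0.05 for Il1rn, -0.31 to 0.56 for Il33, -0.44 to 0.97 for Tnf, -0.24 to 0.26 for Nfkbia, -0.50 to 0.04 for Icam1, -0.27 to 0.04 for Vcam1, -1.24 to 0.04 for Saa3, -0.23 to 0.01 for Nfkb1, -0.01 to 0.43 for Casp4, -0.17 to 0.55 for Il1rap and -0.04 to 0.82 for Tnfaip3. No paired analysis was possible because replicate numbers were given in accession order and pair no libraries. There were only 2 controls. The members had at least 41 counts in each library.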
